A study of Mus musculus with 4 samples.

Results

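Among the regions of open chromatin that were called in every library of induced regulatory T cells cultured with or without interleukin-4 (IL-4), 500 stood higher in the height order of both IL-4 libraries than in that of both libraries without IL-4 by the widest margin. The peaks of 4 lists were merged into 93679 regions, of which 47767 held a peak in all 4 libraries and 47710 of these lay on assembled chromosomes. The members were chosen by peak height itself. The highest peak of a region in each library was given its percentile among the shared regions, and the score was the lower of the percentiles with IL-4 minus the higher of the percentiles without IL-4. The 500 highest scores, from 10.7 to 42.4 percentile points, are the rising regions described here. Heights, percentiles and scores of all 4 libraries took part in this choice, so they are given as a description, with no test.

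The assay was ATAC-seq, in which the transposase Tn5 inserts sequencing adapters where DNA is accessible. The cells came from spleens of male C57BL/6 mice, aged 7 weeks per the labels, and were sorted as naive CD4+ T cells by the phenotype CD62LhighCD44lowCD25-. Every culture received plate-bound anti-CD3 at 5 µg/ml, soluble anti-CD28 at 1 µg/ml, human TGF-β1 at 5 ng/ml and mouse IL-2 at 10 ng/ml for 48 h. The iTreg+IL-4 cultures also received mouse IL-4 at 15 ng/ml, the iTreg+PBS cultures did not, and each condition gave 2 libraries that the study describes as pooled, biologically independent samples. The 4 libraries were whole cultures, so a change in all cells and a change in the share of a cell type cannot be told apart. Of the 9 marker genes of CD4+ T cells, 8 had a peak within 1 kb of a start site in every library, and Trac had none. Some start sites of other lineages were open too, in all libraries at 1 of 7 B cell, 3 of 7 myeloid, 1 of 4 NK cell, 2 of 4 erythroid and 1 of 2 CD8 T cell genes. No marker of these lineages was the nearest gene of a rising region. They were nearest to only 43 shared regions, and 1.05% of all shared regions were rising, so this says little. Cd79b, Pax5, Blk and Hba-a1 had a peak in 1 of the 4 libraries each, an iTreg+IL-4 one, and no marker had a peak only without IL-4. The part of such cells in the results was not tested. The lists held 77064 and 56645 peaks in iTreg+PBS replicates 1 and 2, and 78670 and 67743 in iTreg+IL-4 replicates 1 and 2. Numbers of reads are unknown, and the median height over the shared regions was 97, 39, 94 and 68 in the same order. iTreg+PBS replicate 2 therefore stands apart as the library with the fewest and lowest peaks, and heights were compared only as percentiles within a library. Throughout, the 4 values of a region are given in this order of libraries.

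IL-4 signals through its receptor and the Janus kinases to STAT6, a transcription factor that enters the nucleus as a dimer and binds mirrored TTC and GAA half-sites. STAT6 favours a spacing of 4 bases between these half-sites, whereas other STAT proteins favour 3. Among the genes that STAT6 induces in T helper 2 (Th2) cells is that of GATA3, which binds sequences around the letters GATA and keeps cytokine genes accessible. Regulatory elements of this kind often lie in introns or far from start sites, and a region that is already open can become more accessible without a new peak being called.

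The letters of 5 of the highest-scoring rising regions that hold TTCNNNNGAA, and of 3 others near genes of Th2 cells, show the sequences on which much of the description below turns. The first 5 follow the order of scores. The other 3 were picked after their values were seen, from the rising regions near Th2 and Th9 genes. Only these among them held TTCNNNNGAA or AGATAA. Each line gives the nearest gene, the 200 bases around the region's centre on GRCm38 (mm10), forward strand, and the sequence, with TTCNNNNGAA and AGATAA on either strand in capitals. Starts were read as counting from 0 in the lists and are given counting from 1, and they would be 1 base too high if the lists counted from 1.
Ipmk, chr10:71357835-71358034: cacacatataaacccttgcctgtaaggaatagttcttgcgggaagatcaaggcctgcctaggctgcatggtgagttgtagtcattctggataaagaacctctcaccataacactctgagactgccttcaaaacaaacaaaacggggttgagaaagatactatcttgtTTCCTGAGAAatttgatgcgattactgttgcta
Focad, chr4:88300807-88301006: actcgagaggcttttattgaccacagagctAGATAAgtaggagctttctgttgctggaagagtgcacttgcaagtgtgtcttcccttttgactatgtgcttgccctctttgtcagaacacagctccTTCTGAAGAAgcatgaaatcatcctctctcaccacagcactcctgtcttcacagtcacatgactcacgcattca
Tbl1xr1, chr3:21809698-21809897: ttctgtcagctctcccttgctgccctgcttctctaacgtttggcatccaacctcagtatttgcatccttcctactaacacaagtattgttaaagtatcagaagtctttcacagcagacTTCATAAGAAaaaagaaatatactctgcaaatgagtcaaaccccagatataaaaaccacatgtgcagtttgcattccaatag
Socs1, chr16:10700262-10700461: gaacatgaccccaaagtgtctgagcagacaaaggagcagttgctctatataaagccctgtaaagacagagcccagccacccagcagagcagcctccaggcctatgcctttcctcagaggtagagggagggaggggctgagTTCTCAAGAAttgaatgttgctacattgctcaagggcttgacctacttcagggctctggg
Casp6, chr3:129930362-129930561: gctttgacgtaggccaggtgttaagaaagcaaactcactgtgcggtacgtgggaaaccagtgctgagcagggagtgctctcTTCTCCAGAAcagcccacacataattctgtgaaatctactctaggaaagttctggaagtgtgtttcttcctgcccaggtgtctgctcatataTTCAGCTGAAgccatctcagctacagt
Gata3, chr2:9650014-9650213: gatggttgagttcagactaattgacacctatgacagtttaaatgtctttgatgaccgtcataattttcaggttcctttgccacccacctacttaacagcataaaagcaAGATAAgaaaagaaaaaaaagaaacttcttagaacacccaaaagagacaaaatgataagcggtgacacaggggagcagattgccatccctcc
Batf, chr12:85670050-85670249: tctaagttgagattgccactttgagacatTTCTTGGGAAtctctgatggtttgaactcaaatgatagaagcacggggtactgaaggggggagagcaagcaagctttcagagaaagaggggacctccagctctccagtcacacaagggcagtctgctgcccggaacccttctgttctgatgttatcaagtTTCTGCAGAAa
Gfi1, chr5:107677403-107677602: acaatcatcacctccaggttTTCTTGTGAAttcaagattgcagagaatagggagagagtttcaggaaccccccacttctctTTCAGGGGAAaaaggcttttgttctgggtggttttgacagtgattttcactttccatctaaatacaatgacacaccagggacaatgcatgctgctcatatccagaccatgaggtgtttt
The window near Socs1 holds TTCTCAAGAA, the form found most often in the rising regions. The windows near Casp6, Batf and Gfi1 hold 2 sites each, and that near Focad holds 1 site and 1 AGATAA. The Gata3 window has no TTCNNNNGAA and 1 AGATAA.

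Rising regions moved from the lower part of the height order towards its middle. Their median percentile was 23.6 and 22.4 in the iTreg+PBS libraries and 45.3 and 45.5 in the iTreg+IL-4 libraries, and their median height was 48, 21, 83 and 60. The highest percentile of any rising region without IL-4 was 78.1, and the lowest with IL-4 was 12.4, 46 stood above percentile 50 in a library without IL-4, and 15 above percentile 75 in both libraries with it. The median gap between replicates was 5.13 points without IL-4 and 3.93 points with IL-4, beside 5.45 and 4.53 points over all shared regions. The rule favours small gaps, and the median score of 14.3 is likewise its outcome. Scores at the limit were close together. The last region chosen, chr14:21299574-21300370, stood at percentiles 21.3, 29.0, 39.9 and 39.6. The first one left out, chr14:103089314-103089752, stood at 13.8, 29.0, 48.3 and 39.6 and had the same score of 10.7, so position decided between them.

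**Figure D1:**
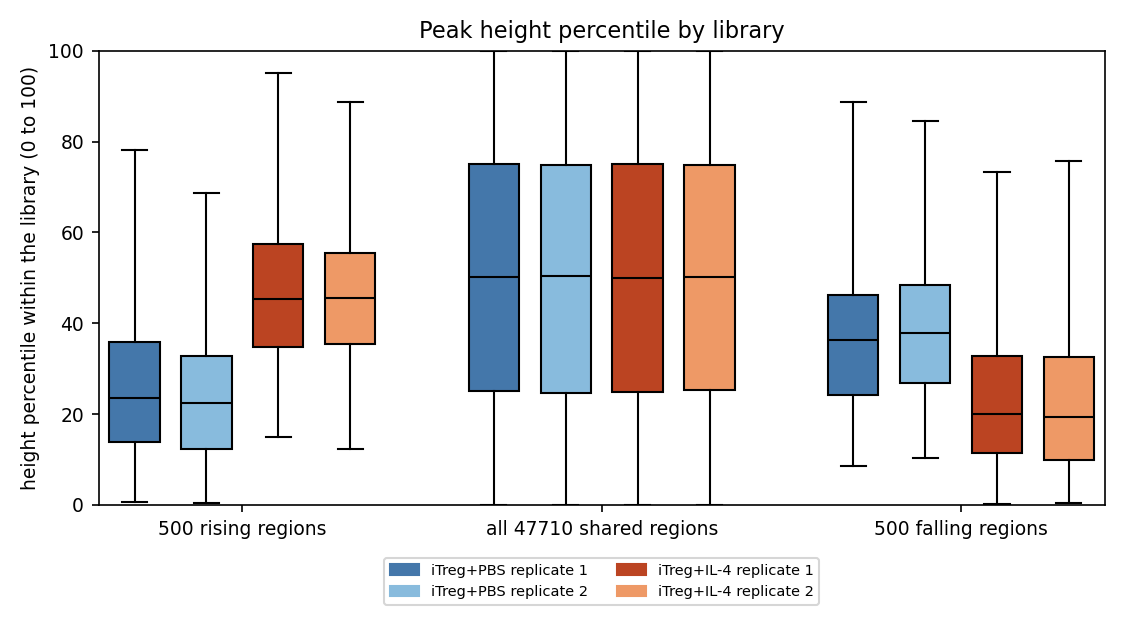
Box plot of the height percentile within each library (0 to 100) for the 500 rising regions, all 47710 shared regions and the 500 falling regions, with the median as a line, quartiles as boxes and the full range as whiskers. Medians of the rising regions lie at 23.6 and 22.4 in the iTreg+PBS libraries and at 45.3 and 45.5 in the iTreg+IL-4 libraries, a difference that the choice of regions set.

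Of all 47710 shared regions, 6558 (13.7%) stood higher in both IL-4 libraries than in both others, and all 500 rising regions are among them because the rule required it. The opposite order was found in 5740 (12.0%). The count of 6558 became 16198 without iTreg+PBS replicate 1, 15438 without iTreg+PBS replicate 2, 14968 without iTreg+IL-4 replicate 1, 13643 without iTreg+IL-4 replicate 2, and 13214 where each replicate number was compared within itself, since fewer orders are then required. By the other value of each peak, read as −log10 of its q-value, 6852 shared regions (14.4%) stood higher with IL-4, again with all 500 rising regions among them. Both values come from the same reads, so the second adds no independent evidence. The 500 regions that fell furthest by the mirrored rule serve below as the comparison, and their scores were smaller, between 7.11 and 23.5 points.

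The libraries of 1 replicate number can choose regions and those of the other number can show them. Such lists are not the 500 rising regions, whose own differences in both numbers the rule fixed, and they are given as a description. The 500 regions with the widest rise in replicate 1 had a median difference of 16.8 points in replicate 2, where 451 (90.2%) rose, beside 50.3% of all shared regions. Those chosen in replicate 2 had a median difference of 10.0 points in replicate 1, where 414 (82.8%) rose, beside 48.8%. The widest falls carried over less: 27.8% and 37.0% of them rose in the other pair of libraries. Of the regions chosen in replicate 1, 269 are among the 500 rising regions, and of those chosen in replicate 2, 178. With 1 library a condition on each side no test was possible. The difference between IL-4 and control in the 2 replicate numbers had r = 0.255 (Pearson) and rho = 0.195 (Spearman) over all 47710 shared regions, which are not independent replicates.

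**Figure D2:**
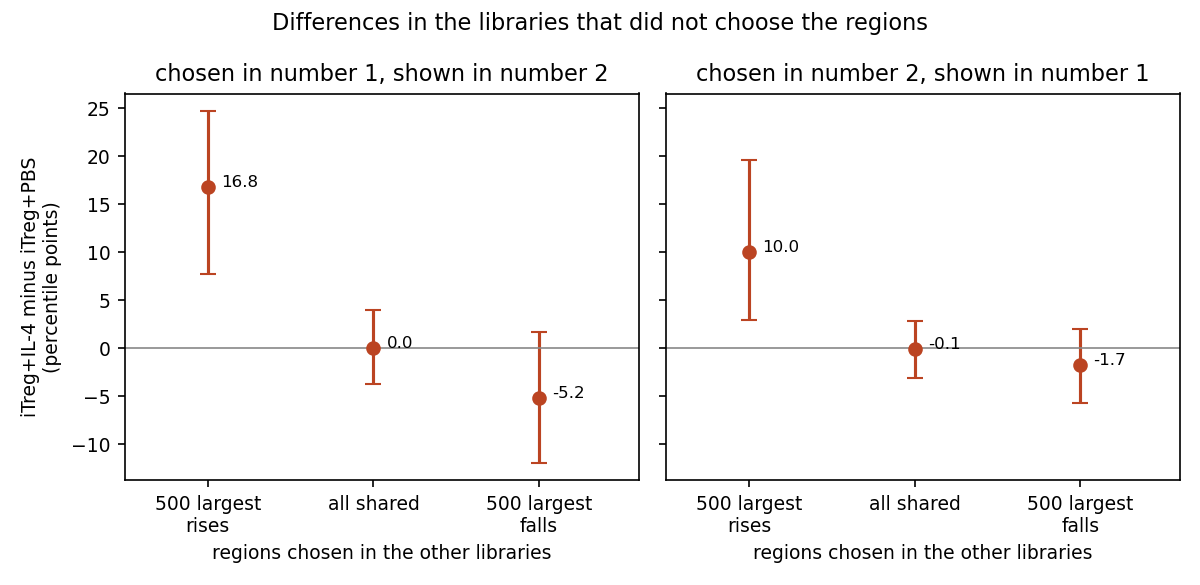
Median and quartiles of the difference iTreg+IL-4 minus iTreg+PBS, in percentile points, in the libraries of 1 replicate number, for the 500 largest rises and 500 largest falls chosen in the other number and for all shared regions. The rises chosen in replicate 1 keep a median of 16.8 points in replicate 2, and those chosen in replicate 2 keep 10.0 points in replicate 1.

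Most rising regions lay away from start sites. Of the 500, 30 (6.0%) were within 1 kb of an annotated start site, beside 29.8% of all shared regions and 12.2% of the falling ones. Introns held 274 (54.8%) and stretches between genes 179 (35.8%), beside 38.9% and 27.7% of all shared and 45.4% and 39.0% of the falling regions. Another 9 overlapped coding exons at their centre and 8 other exons. More than 50 kb from the nearest protein-coding start site lay 166 (33.2%), beside 20.4% of all shared and 27.8% of the falling regions. Rising regions had a median width of 615 bases, against 688 for all shared and 601 for the falling regions, and a median GC content of 45.0%, against 51.0% for all shared and 48.0% for the falling regions. They were spread over the autosomes and chromosome X, from 0.541% of the shared regions of chromosome 7 to 1.56% of those of chromosome 16.

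TTCNNNNGAA, the half-sites with 4 bases between them, stood in the central 200 bases of 134 rising regions (26.8%, Wilson 95% interval 23.1 to 30.8). All shared regions held it in 5.27%, and the falling regions in 2.80% (14 regions). The motif reads the same on both strands. These intervals cover counting over regions only and say nothing of the spread between cultures. The same half-sites with 3 bases between them, TTCNNNGAA, were in 13.6% of rising, 14.2% of falling and 8.29% of all shared regions. With gaps of 2, 5 and 6 bases the shares in rising regions were 5.0%, 5.8% and 6.6%, beside 5.31%, 4.61% and 4.81% of all shared regions. Among these 5 spacings, the share in rising regions was thus over 2 times that of all shared regions with a gap of 4 and with no other. Away from start sites, over 1 kb from any of them, TTCNNNNGAA stood in 27.4% of rising, 2.96% of falling and 6.13% of all shared regions. Since the sets differ in GC content, shares were also read within bins of it: at 40 to 50% GC, 23.6% of 313 rising and 7.12% of all shared regions held the motif, and at 50 to 60% GC, 32.6% of 89 and 4.98%.

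The share fell in step with the score. It was 38.0% in the first 100 regions, 24.0% in the other 400, 18.2% in the next 500, 11.9% in the 1000 after those and 8.40% in the following 2000. Where the libraries of the 2 conditions overlapped it was 4.66%, and along the falling side it ran from 2.0% to 4.4%. The order comes from the same heights, but sequence had no part in it. From the first 100 to the following 2000 regions mean GC content also changed, from 43.7% to 50.0%. The share within 1 kb of a start site went from 4.0% to 16.65%, and that with AGATAA from 25.0% to 10.65%. Read from the other side, 26.6% of the 2512 shared regions with the motif stood higher with IL-4 and 7.72% lower, beside 13.7% and 12.0% of all shared regions.

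**Figure D3:**
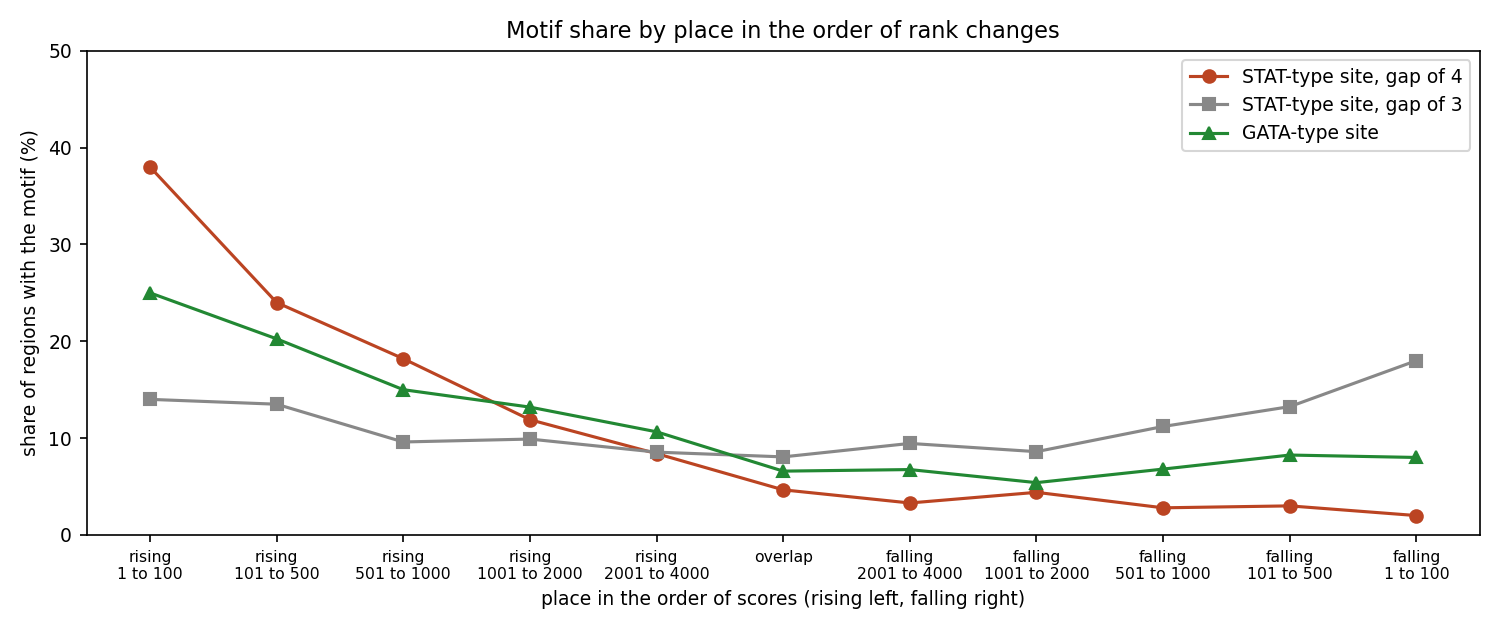
Share of regions (%) with each motif in the central 200 bases against the place in the order of scores, from the highest rising to the furthest falling regions, with regions whose libraries overlap in the middle. The STAT-type site with a gap of 4 bases falls from 38.0% in the first 100 rising regions to 2.0% in the first 100 falling ones, and the site with a gap of 3 is lowest in the middle and higher at both ends.

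Within a region the sites gathered at the middle. Per 100 rising regions there were 16.4 TTCNNNNGAA sites within 50 bases of the centre, against 2.86 over all shared regions and 1.2 over falling regions. At 500 to 1000 bases from the centre the density was 3.68 sites per 100 regions and 100 bases, against 2.72 over all shared regions. The 134 rising regions held 147 sites, and 13 of these regions held more than 1. TTCTCAAGAA, or its complement TTCTTGAGAA, made up 13 of the 147, and 22.0% of the 59 sites of this form in all shared regions were in rising ones. TTCCTGAGAA and TTCTGAAGAA followed with 10 sites each. The wholly mirrored TTCCNNGGAA made up 7.48% of sites in rising and 8.64% in all shared regions.

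**Figure D4:**
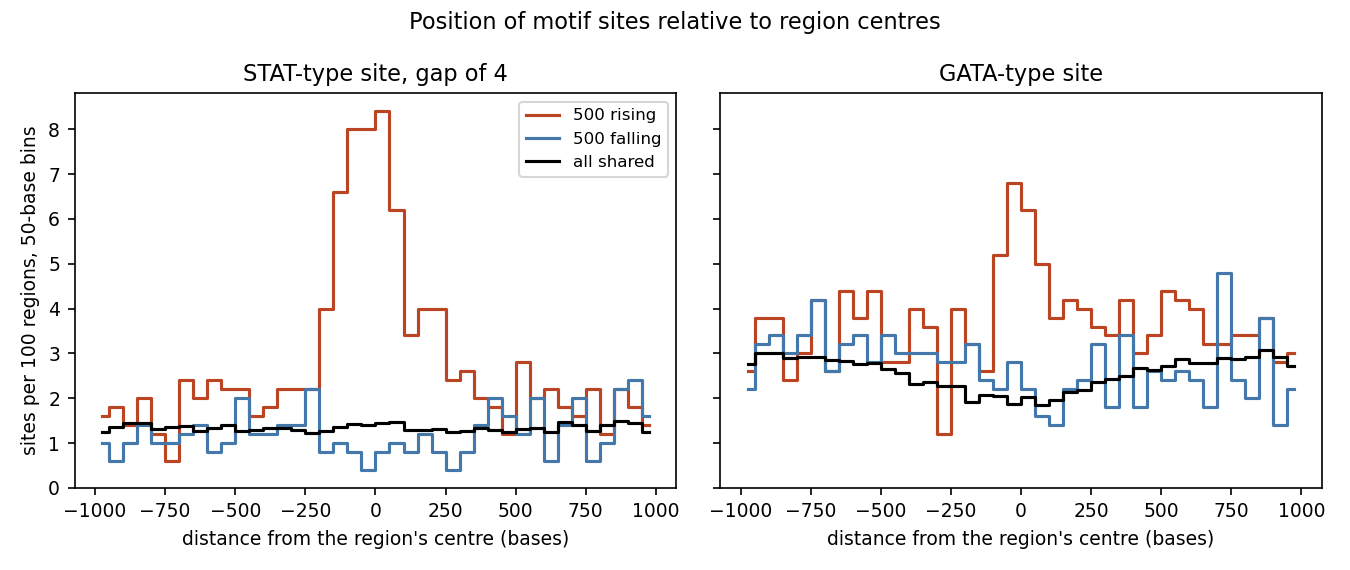
Sites per 100 regions in bins of 50 bases against the distance from the region's centre, for the STAT-type site with a gap of 4 bases and the GATA-type site, in rising, falling and all shared regions. In the rising regions both kinds of site peak at the centre, with 16.4 STAT-type and 13.0 GATA-type sites per 100 regions within 50 bases of it.

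AGATAA, the core of GATA sites, was the other searched motif whose share in rising regions was over 2 times that of all shared ones. It stood in 106 rising regions (21.2%, 17.8 to 25.0), in 8.2% of falling and in 7.16% of all shared regions. Read within bins of GC content the shares lay closer together: at 30 to 40% GC, 28.6% of 84 rising and 16.0% of all shared regions held AGATAA, at 40 to 50% GC 22.0% and 10.5%, and at 50 to 60% GC 13.5% and 5.79%. Within 50 bases of the centre there were 13.0 sites per 100 rising regions, against 3.91 over all shared regions. Both AGATAA and TTCNNNNGAA were in 28 rising regions, TTCNNNNGAA alone in 106, AGATAA alone in 78 and neither in 288 (57.6%). Over all shared regions, 220 held both, and of these 84 (38.2%) stood higher with IL-4 and 28 (12.7%) were rising regions. With TTCNNNNGAA alone 25.5% stood higher, with AGATAA alone 20.5%, and with neither 12.5%. The letters do not tell which factor, if any, was bound.

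The shares of the other motifs were as follows. TGANTCA, bound by AP-1, was in 17.6% of rising, 10.4% of falling and 10.7% of all shared regions, and CTTTGA, bound by TCF and LEF factors, in 19.8%, 18.6% and 13.3%. TGTGGTT, bound by RUNX factors, was in 8.8% of rising and 14.2% of falling regions, beside 8.32%. TGGAAAA, bound by NFAT, was in 2.6% and 7.0%, beside 4.08%. The GC box GGGCGG, frequent at promoters, was in 5.0% of rising, 10.6% of falling and 20.2% of all shared regions, and CCGGAAG, bound by ETS factors, in 1.6%, 1.6% and 4.42%. Over 1 kb from start sites GGGCGG was in 4.47% of rising and 8.24% of all shared regions and CCGGAAG in 1.70% and 2.04%. GAAANNGAA, part of interferon-responsive sites, stood in 9.0% of rising and 8.26% of all shared regions, and the E-box CAGCTG in 12.4% and 12.2%. TGTTTAC, bound by forkhead factors, was in 2.8% and 2.36%, and GGGANTTCC, bound by NF-κB, in 1.8% and 1.35%. The NFIL3 palindrome TTACGTAA was in none of the 500, which allows a share of up to 0.762% (Wilson), and in 0.0608% of all shared regions. GTCTAGAC, a SMAD site, was in 2 rising regions (0.4%), beside 0.235% of all shared regions. AGGGGGC, from the core of CTCF sites, was in 2.0% of rising and 4.4% of falling regions, beside 6.73%, and over 1 kb from start sites in 1.70% beside 5.54%.

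The nearest genes of the 20 highest scores have varied known functions. Of these regions 14 lay in introns and 4 between genes, none within 1 kb of a start site, 12 held TTCNNNNGAA and 6 AGATAA. The top region, chr1:176986090-176986742, lay in an intron of Sdccag8, which encodes a centrosome protein. Its heights were 29, 10, 95 and 68, at percentiles 7.80, 0.336, 50.2 and 50.2, so it rose from among the weakest shared peaks to the middle of the order. Neither motif stood in its central window. The next, chr7:101052952-101053370, lay 41.1 kb upstream of P2ry2, a receptor for extracellular nucleotides, and held 2 AGATAA. Its percentiles were 8.63, 15.4, 60.7 and 56.5. A lower-scoring rising region, nearest to Fchsd2, lay in the same stretch of 8087 bases. In an intron of Cnst the region chr1:179591393-179592817 stood at 13.8, 8.08, 49.1 and 48.5 and held 1 AGATAA.

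The regions whose letters are given above stood as follows. In an intron of Ipmk, which encodes an inositol phosphate kinase, chr10:71357678-71358193 had heights of 26, 14, 73 and 53 and percentiles of 5.47, 5.92, 40.5 and 40.4. Both conditions repeated closely there. In an intron of Focad, chr4:88300508-88301307 had heights of 65, 26, 254 and 123 and percentiles of 35.2, 32.8, 79.7 and 69.1, the highest with IL-4 among the first 10 in replicate 1. Focad was also the nearest gene of 2 further rising regions, in another intron and 19.2 kb upstream of its start. Tbl1xr1 encodes a subunit of the NCoR and SMRT corepressor complexes, which recruit histone deacetylases. The region named for it, chr3:21809581-21810015, lay 267 kb upstream, at percentiles 9.47, 15.4, 48.7 and 53.3. The gene was nearest to 33 shared regions, of which 2 were rising. In an intron of Mcub, nearest to the start of Casp6, chr3:129930205-129930719 stood at 37.5, 32.8, 72.0 and 70.4.

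Socs1, which encodes a STAT-induced inhibitor of cytokine signalling, gave the seventh highest score. Its region, chr16:10700095-10700630, lay in an intron of Clec16a, 85.2 kb downstream of the Socs1 start, with heights of 50, 23, 131 and 90. The percentiles were 25.0, 26.9, 61.1 and 60.0, and libraries of a condition lay within 2 points of each other. Of the 14 shared regions nearest to Socs1 it was the only rising one. Further down the first 20, those nearest to Smim15, Efna5, Gramd1b, Rcl1, Slc6a20b and Brca2 held TTCNNNNGAA. Efna5, which encodes the ligand ephrin-A5, had 3 rising regions among its 8 shared ones. The strongest of them, chr17:62807831-62808386, stood at 38.6, 36.3, 71.6 and 70.0. In Gramd1b, which encodes a cholesterol transfer protein, the region lay 2.43 kb downstream of a start site and rose from 2.91 and 5.92 to 45.7 and 37.1. In Slc6a4, the serotonin transporter gene, an intronic region with 1 AGATAA stood at 20.5, 17.8, 57.7 and 51.3.

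Th2 and Th9 genes were nearest to 7 rising regions of 207 shared ones (3.38%), beside 500 of 47710 (1.05%) over all genes. The gene lists were drawn up with results of these data known. The count of 7 depended on single libraries: it was 11 without iTreg+PBS replicate 1, 6 without iTreg+PBS replicate 2, 4 without iTreg+IL-4 replicate 1 and 12 without iTreg+IL-4 replicate 2. Of the 207 regions, 53 (25.6%) stood higher with IL-4 and 14 (6.76%) lower, beside 13.7% and 12.0%. The median difference of the list was 1.57 points in replicate 1 and 1.78 in replicate 2. For Gata3, the regulator of Th2 fate, the rising region was chr2:9649778-9650450, which lay 228 kb downstream. Its heights were 42, 17, 105 and 56 and its percentiles 18.8, 12.9, 53.8 and 42.7, and it was the only one of 33 shared regions of Gata3 to be chosen. For Il4 itself, chr11:53605033-53606093 lay 11.8 kb downstream of the start, in an intron of the longest annotated transcript, at 27.2, 8.08, 56.8 and 47.3. A second rising region lay within the same 24944 bases, towards Kif3a. For Il9, the cytokine gene of Th9 cells, chr13:56468650-56469259 in an intron of Slc25a48 had heights of 41, 25, 84 and 64.

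Batf and Gfi1 encode transcription factors that act in Th2 and Th9 cells. The Batf region, chr12:85669778-85670523, lay 16.5 kb upstream with 2 TTCNNNNGAA sites, at 33.9, 22.4, 58.5 and 49.7. The Gfi1 region, chr5:107677238-107677769, lay 46.8 kb downstream, also with 2 sites, at 44.4, 43.6, 67.7 and 58.0. For Ccr4, a chemokine receptor of Th2 and regulatory T cells, chr9:114468288-114468996 in an intron of Glb1 stood at 40.2, 34.6, 58.2 and 56.0. For Dusp6, a phosphatase of the ERK kinases, the region lay 64.0 kb upstream and stood at 7.80, 12.9, 28.6 and 27.4. The 7 rising regions thus lay at 7 different genes, and 2 of the 7 held TTCNNNNGAA. Those of Il4, Il9, Ccr4 and Dusp6 held neither TTCNNNNGAA nor AGATAA in the central window. Of the genes of the IL-4 receptor and its signalling, Il4 and Socs1 had 1 rising region each among 107 shared ones (1.87%, beside 1.05% over all genes), and 25 of the 107 (23.4%) stood higher with IL-4 and 12 (11.2%) lower, beside 13.7% and 12.0%.

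Genes of regulatory T cells were nearest to 7 rising regions of 315 (2.22%, beside 1.05% over all genes), and 54 of the 315 (17.1%) stood higher and 25 (7.94%) lower, beside 13.7% and 12.0%. Satb1, which encodes a chromatin organiser needed for regulatory T cell enhancers, had 3 rising regions of 40 shared ones, none with TTCNNNNGAA. The uppermost, chr17:52035810-52036768, lay 203 kb upstream at 12.1, 12.9, 49.1 and 36.3, and another shared a stretch of 5939 bases with it, in an intron of the same noncoding gene. Bach2, a repressor that restrains effector programmes, had 2 of 39, the lower of them with 1 AGATAA. Nrp1, a coreceptor on thymic regulatory T cells, had 1 region 7.82 kb upstream, at 47.5, 20.1, 67.1 and 66.1, with the replicates without IL-4 far apart. Lrrc32, whose product holds latent TGF-β at the cell surface, had 1 region at 35.2, 26.9, 50.6 and 46.7.

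For genes of the TGF-β pathway 3 of 208 regions (1.44%) were rising, close to the 1.05% over all genes, and 18.3% stood higher and 9.62% lower, beside 13.7% and 12.0%. The first, in an intron of Dlgap1, was named for Tgif1, a corepressor of SMAD proteins, and stood at 1.47, 10.4, 33.5 and 53.3. The region in an intron of Tgfbr2, a TGF-β receptor gene, had heights of 96, 38, 181 and 113 and stood at 49.8, 49.3, 71.0 and 66.9. It was among the stronger of the rising regions without IL-4. The last was 40.6 kb upstream of Furin, which encodes a protease that processes TGF-β, at 37.5, 37.9, 51.3 and 52.9.

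Naive T cell and quiescence genes had 3 rising regions of 287 (1.05%), the share of all genes: Bcl11b, Ets1 and Foxp1, transcription factors of T cell identity and quiescence. Of the 287, 45 (15.7%) stood higher with IL-4 and 33 (11.5%) lower. Among the regions nearest to list genes, the IL-4 libraries differed most at Bcl11b, with 20.5, 8.08, 56.5 and 32.6. Among activation genes Myc, the growth regulator, had 2 of 331 regions (0.604%), 765 and 898 kb downstream of its start, and the further one held TTCNNNNGAA. Of the 331, 53 (16.0%) stood higher with IL-4 and 37 (11.2%) lower. Of 47 regions of histone deacetylases and sirtuins 1 (2.13%, beside 1.05% over all genes) was rising. It lay 8.26 kb downstream of Sirt4, a mitochondrial sirtuin, at 31.4, 30.9, 43.0 and 44.8. Of the 47, 5 (10.6%) stood higher with IL-4 and 4 (8.51%) lower. No rising region was named for a Th1 gene (0 of 156), a Th17 gene (0 of 94) or a marker of another lineage (0 of 43). At the 1.05% over all genes, lists of this size would hold few, so these counts say little about the genes. Of the Th1 regions, 18 (11.5%) stood higher and 28 (17.9%) lower with IL-4. Of the Th17 regions, 16 (17.0%) stood higher and 8 (8.51%) lower. Over all shared regions the shares were 13.7% and 12.0%.

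**Figure D5:**
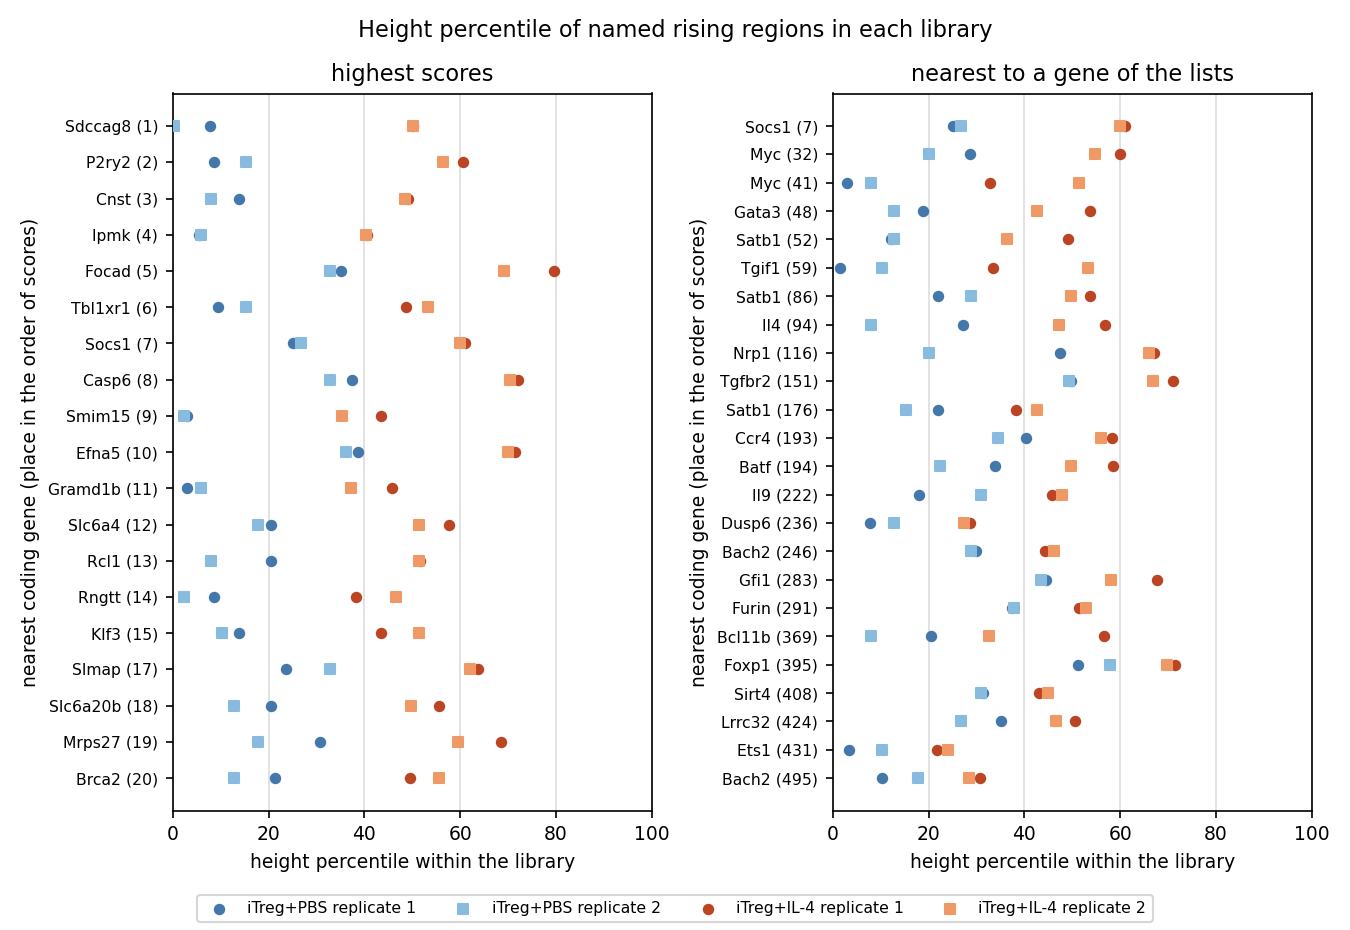
Height percentile within each library (points and squares for replicates 1 and 2, blue without and red with IL-4) for 19 of the 20 highest scores and for the 24 rising regions nearest to a gene of the lists, with the place in the order of scores in brackets. In every row both IL-4 points lie to the right of both iTreg+PBS points, as the rule requires, and the distance between them narrows from Sdccag8 to Bach2.

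Rising regions mostly stood alone. They were nearest to 458 genes, of which 36 had 2 and 3 (Satb1, Focad and Efna5) had 3. Within 50 kb of each other lay 49 of them, in 24 stretches of at most 3. Another rising region stood within 50 kb of 9.8% of the rising, 3.6% of the falling and 4.72% of all shared regions. A region called in both IL-4 libraries and in neither other one stood within 50 kb of 24.6% of the rising, 18.8% of the falling and 19.4% of all shared regions. Counted within 10 kb, the shares were 6.8%, 5.6% and 4.41%. The opposite kind, called only without IL-4, was also somewhat more frequent near rising regions. Its shares were 7.0%, 5.4% and 5.62% within 50 kb, and 1.8%, 1.2% and 1.24% within 10 kb.

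The choice of regions depended on each of the libraries. Without iTreg+PBS replicate 1, 175 of the 500 remained among the highest 500 scores, and without iTreg+PBS replicate 2, iTreg+IL-4 replicate 1 and iTreg+IL-4 replicate 2, 301, 267 and 282 did. The share with TTCNNNNGAA was then 18.8%, 29.2%, 22.2% and 25.4%, beside the 5.27% of all shared regions. Only peak positions and heights are known here, so whether any of these regions acts on the gene it is named for was not tested.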

How the data were processed

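ATAC-seq was performed on 4 libraries, 2 iTreg+PBS and 2 iTreg+IL-4. According to the study's methods, paired reads were mapped with Bowtie2 and only mapped pairs were kept, and peaks were called in each library with MACS2. The submitters' processing notes name Bowtie2 2.2.5, MACS2 2.1.2, bedtools 2.16.2 and mm10. Correction for the Tn5 offset, removal of duplicate or mitochondrial reads and the caller's settings are not given in the sources used here, and their effect on heights was not tested. The deposited lists have no column names. The values after each position were read, from their range, as the height of the pileup signal and, before it, −log10 of the q-value, both made by the authors and not scaled between libraries.

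Peaks sharing at least 1 base were merged, and percentiles were taken over all shared regions. The 57 shared regions off the assembled chromosomes entered the percentiles only. Regions were named for the nearest protein-coding start site (GENCODE M21, basic set). Motifs were searched on both strands in 200 bases around the centre of the merged region, in GRCm38 from RefSeq, and matches of different motifs could overlap. Intervals are Wilson's, at 95%. Named regions are the 20 highest scores, members nearest to a gene of 10 lists, and genes nearest to 3 members; 1 of the 20 is not reported here by name. Members and lists were chosen with earlier results of these data known. The ranking and the searches were tested on simulated data. Python 3.11.15, numpy 2.4.6, pandas 2.3.3, scipy 1.17.1, pysam 0.24.0, samtools 1.23.1, statsmodels 0.14.6 and matplotlib 3.10.9 were used.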

Additional observations from a re-analysis of the deposited data

How the results depend on the processing

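Only the median score, above 0 by its choice, and the scores of named regions, chosen as high, could be read as reversed. None was. The 120 scores that the 47 named regions had under −log10 q, whole-list percentiles and 50% coverage all stayed above 0 (21 could not be computed, as the region was not shared). With −log10 q in place of height, 22.6% held TTCNNNNGAA and 86.0% of the regions chosen in replicate 1 rose in replicate 2. Keeping the upper 50% of each list, from which weak peaks are missing by construction, left 3346 non-overlapping regions, 65 of the 500, a median score of 10.5 and 9.6% near start sites. Requiring a peak to cover 50% of a region left 291 of the 500 and a median score of 10.9. Percentiles within the whole list left 247 of the 500, 9.4% with TTCNNNGAA and 84.6% rising in replicate 2. Leaving out 1 library at a time gave 13643 to 16198 non-overlapping regions, 175 to 301 of the 500, 18.8% to 29.2% with TTCNNNNGAA, 9.4% to 12.0% with TTCNNNGAA, 4.6% to 7.2% near start sites and median scores of 18.4 to 24.7; fewer libraries give wider scores by construction. With a replicate block, which pairs libraries of the same number, 13214 regions rose in both pairs, the median score was 17.8 and 3.6% were near start sites, while 345 of the 500 remained. The labels do not say that a number marks a shared batch. The deviations of same-numbered libraries had r = 0.565 across regions. Replicate 2 also had fewer and lower peaks than replicate 1 in both conditions, and the source of the correlation was not tested. In 100 bases TTCNNNNGAA and TTCNNNGAA stood in 14.4% and 7.4% of rising regions (2.57% and 4.25% of all shared), and in whole regions in 51.4% and 25.4% (17.3% and 22.8%). AGATAA stood in 12.6% of rising regions in 100 bases (3.62% of all shared) and in 42.6% in whole regions (23.7%), there under 2 times the share of all shared regions. A limit of 2.5 kb put 12.6% near start sites, and protein-coding start sites alone 2.8%. The causes of the other shifts were not tested. Of 101 alternative values for all results, 56 stayed within their limit and 45 moved. The GATA and Th2 results and the reading within GC bins were added after seeing the data, as were the alternatives of the comparison between replicate numbers: AGATAA ranged from 17.2% to 22.0% apart from changed windows, and Th2 and Th9 genes had 3 (whole-list percentiles) to 14 (upper 50%) regions and, with 1 library left out, 4 to 12. Unknown depth, with 2 libraries a condition and the lowest heights in iTreg+PBS replicate 2, limits what the order of weak peaks can show.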
